A study of Mus musculus with 8 samples.

Results

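Prss34, Mcpt8, Cpa3 and Gata2 are 4 of the 16434 genes measured by RNA sequencing in leukaemic and normal cells of C57BL/6 mouse bone marrow, and they were taken from the table by their gene symbols. N-Myc was overexpressed in the leukaemic mice, and GFP-positive cells were sorted from each leukaemia. Acute myeloid leukaemia (AML) was taken as Mac1+ Gr1+ cells, acute undifferentiated leukaemia (AUL) as cells lacking B220, CD3, Mac1 and Gr1, and the B-cell and T-cell acute lymphoblastic leukaemias (B-ALL and T-ALL) as B220+ and CD3+ cells. The normal libraries were B cells (B220+), T cells (CD3+), myeloid cells (Mac1+ Gr1+) and lineage-negative cells (lacking all of those antigens) from normal marrow, with mice 8 to 10 weeks old. The protocol also mentions a cocktail of lineage antibodies whose targets it does not list, so which other cells were removed from the lineage-negative library is not stated. Each of the 8 groups had 1 library, so a difference between 2 libraries has no replicate check, and what drove N-Myc and how many mice gave each library were not stated in the labels. Values are FPKM, the number of sequenced fragments divided by transcript length and library total, so levels of different genes can be set side by side. The libraries held 33818412 to 52279974 fragments, recovered from the steps of the deposited values, and all intervals below are 95% intervals that cover counting error only.

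Basophils and mast cells store proteases in granules and release them when antigen crosslinks immunoglobulin E on the high-affinity receptor at their surface. Prss34 and Mcpt8 encode serine proteases that mark mouse basophils, and Cpa3 encodes carboxypeptidase A3, a metalloprotease of mast cell granules that basophils and their progenitors also carry. Gata2 encodes a zinc-finger transcription factor that binds GATA motifs, is required for blood stem cells, and acts in the formation of basophils and mast cells.

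The genes lie on 4 chromosomes. In build mm10, Prss34 (ENSMUSG00000056399) spans bases 25298394 to 25300161 of chromosome 17 on the plus strand, beside the tryptase genes. Mcpt8 (ENSMUSG00000022157) spans bases 56082166 to 56085216 of chromosome 14 on the minus strand, in the chymase and granzyme cluster. Cpa3 (ENSMUSG00000001865) spans bases 20215620 to 20242181 of chromosome 3 on the minus strand. Gata2 (ENSMUSG00000015053) spans bases 88193891 to 88207032 of chromosome 6 on the plus strand. All 4 are annotated as protein-coding.

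The 250 bases before the RefSeq start of each protease are shown because Gata2 is the factor measured beside them, with GATA motifs in capitals (RefSeq, build GRCm38.p6). Prss34 is chr17:25298144-25298393 on the plus strand, Cpa3 is chr3:20242182-20242431 on the minus strand and Mcpt8 is chr14:56085198-56085447 on the minus strand, each written 5′ to 3′ on the gene's strand. For Mcpt8 the RefSeq start lies inside the span given above, so the window overlaps the first bases of that span.
Prss34: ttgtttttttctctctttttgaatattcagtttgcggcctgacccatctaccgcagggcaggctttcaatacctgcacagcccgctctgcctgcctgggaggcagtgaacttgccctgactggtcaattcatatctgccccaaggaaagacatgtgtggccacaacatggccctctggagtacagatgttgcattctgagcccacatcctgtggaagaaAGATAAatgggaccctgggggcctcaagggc
Cpa3: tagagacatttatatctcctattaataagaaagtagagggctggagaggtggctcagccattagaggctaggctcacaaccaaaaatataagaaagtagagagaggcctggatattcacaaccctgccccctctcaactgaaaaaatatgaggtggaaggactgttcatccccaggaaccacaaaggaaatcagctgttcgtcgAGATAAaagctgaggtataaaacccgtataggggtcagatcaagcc
Mcpt8: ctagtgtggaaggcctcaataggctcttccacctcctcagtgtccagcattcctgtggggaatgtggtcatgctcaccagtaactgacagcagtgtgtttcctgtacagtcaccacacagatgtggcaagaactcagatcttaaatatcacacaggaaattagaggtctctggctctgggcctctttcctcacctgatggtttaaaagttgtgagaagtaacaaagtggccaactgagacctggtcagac
The GATA search took AGATAA or AGATAG, and also TGATAA or TGATAG, on both strands. Prss34 had 1 match, 31 bases before its start, and Cpa3 had 1 match, 46 bases before its start. Both matches read AGATAA on the gene's own strand. The Mcpt8 window and both windows of Gata2 (chr6:88193641-88193890 and chr6:88198414-88198663, plus strand) held none of these letters. Among 32851 promoter windows of this length, 26.5% held a GATA match, so a match is common. For RUNX (TGTGGT), Mcpt8 had 2 matches and Cpa3 had 1, against 14.0% of all windows with any. For E-boxes (CANNTG, which includes the MYC form CACGTG), Mcpt8 had 3 and Prss34 and Cpa3 had 2 each, against 66.2% of windows, and no window of the 4 genes held CACGTG (6.02% of all). No window of the 4 genes held the STAT letters TTCNNNGAA (7.02%), the ETS letters GAGGAAG (10.6%) or the C/EBP letters TTGCNNCAA or TTNNGCAA (11.1%). A match is a description of these letters, not a measured binding site.

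The labels were checked against lineage markers. Over 8 B-cell markers, the summed level was 2201 FPKM in B-ALL, with 4880 among normal B cells, but it was also 724.6 in normal T cells and 814.6 in normal lineage-negative cells. Over 8 T-cell markers, the sum was 1389 FPKM in AUL, a library sorted as CD3-negative, against 70.0 in normal lineage-negative cells, and Cd3d stood at 275.8 FPKM in AUL. Among basophil receptor genes Fcer1a, the ligand-binding chain of the immunoglobulin E receptor, was at 3.24 to 61.9 FPKM in the 4 normal libraries. Not every gene of that list reached 1 FPKM in each of them. Itga2 was at 0.300 in normal myeloid cells and 0.928 in normal B cells. Of 14 mast cell markers 8 were measured. Kit reached 57.9 FPKM and Slc18a2 10.0 in normal lineage-negative cells, and Gzmb 68.9 in normal T cells. The chymase gene Cma1 reached 1.17 FPKM at most, a gene chosen after its values were seen, and was listed at 0 in T-ALL, AML and normal T cells. Of 13 granule protein genes of mast cells and basophils 5 were measured, and Mcpt4 and Tpsb2 were not among them. Of the 3 proteases only Cpa3 is given above as a gene of mast cell granules, and basophils share it. Whether mast cells were present was not tested.

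All 4 genes were lower in every leukaemia library than in any normal library. Of the 11071 genes with at least 1 FPKM in at least 2 libraries, 10.5% had every leukaemia library below every normal library and 16% had every leukaemia library above. The proteases and Gata2 shared an order among the normal libraries, with lineage-negative cells highest, then T cells, then myeloid cells and B cells. Among the leukaemias B-ALL kept the most Prss34, Cpa3 and Gata2, whereas AML kept the most Mcpt8 and the least of the other 3. In bulk RNA, fewer basophils in a sort and less RNA of a gene in each basophil cannot be told apart. GFP selection is described for the leukaemias only, so in every contrast of leukaemia with normal cells the disease and that selection cannot be told apart either.

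Prss34 measured 0.117 FPKM in AML, 2.80 in AUL, 12.9 in B-ALL and 0.990 in T-ALL, against 99.4 in normal myeloid cells, 1436 in normal lineage-negative cells, 84.5 in normal B cells and 293.7 in normal T cells. These values rest on 6, 115, 670 and 52 fragments in the leukaemias and on 6319, 77656, 4099 and 13214 fragments in the normal libraries, in the same order. The groups did not overlap, and no pair of neighbours in the order of the 8 libraries had overlapping intervals. Prss34 was the most abundant of the 4 genes in every library but AML.

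Mcpt8 measured 29.2 FPKM in AML, 0.726 in AUL, 7.34 in B-ALL and 0.352 in T-ALL, against 55.3 in normal myeloid cells, 818.6 in normal lineage-negative cells, 55.0 in normal B cells and 146.6 in normal T cells. The leukaemia values rest on 1057, 21, 269 and 13 fragments in the same order. The groups did not overlap, but AML came within a factor of 1.89 of normal myeloid cells. The normal myeloid and B libraries had overlapping intervals, as did AUL and T-ALL.

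Cpa3 measured 0 FPKM in AML, 0.480 in AUL, 2.04 in B-ALL and 0.376 in T-ALL, against 11.0 in normal myeloid cells, 155.1 in normal lineage-negative cells, 9.85 in normal B cells and 32.5 in normal T cells. The leukaemia values rest on 0, 15, 81 and 15 fragments. For the count of 0 in AML a limit of 3 fragments (0.0767 FPKM) was taken, whereas its 95% interval reaches 0.0944 FPKM. The groups did not overlap, and the intervals of AUL and T-ALL, and of normal myeloid and B cells, overlapped.

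Gata2 measured 0.0488 FPKM in AML, 0.473 in AUL, 2.59 in B-ALL and 0.0836 in T-ALL, against 10.8 in normal myeloid cells, 141.2 in normal lineage-negative cells, 9.49 in normal B cells and 51.8 in normal T cells. The leukaemia values rest on 4, 31, 215 and 7 fragments. The groups did not overlap, T-ALL and AML had overlapping intervals at the low end, and so did normal myeloid and B cells. Gata2 in normal T cells stood above Cpa3, whereas the levels of Gata2 and Cpa3 lay close together in the other 3 normal libraries.

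**Figure D1:**
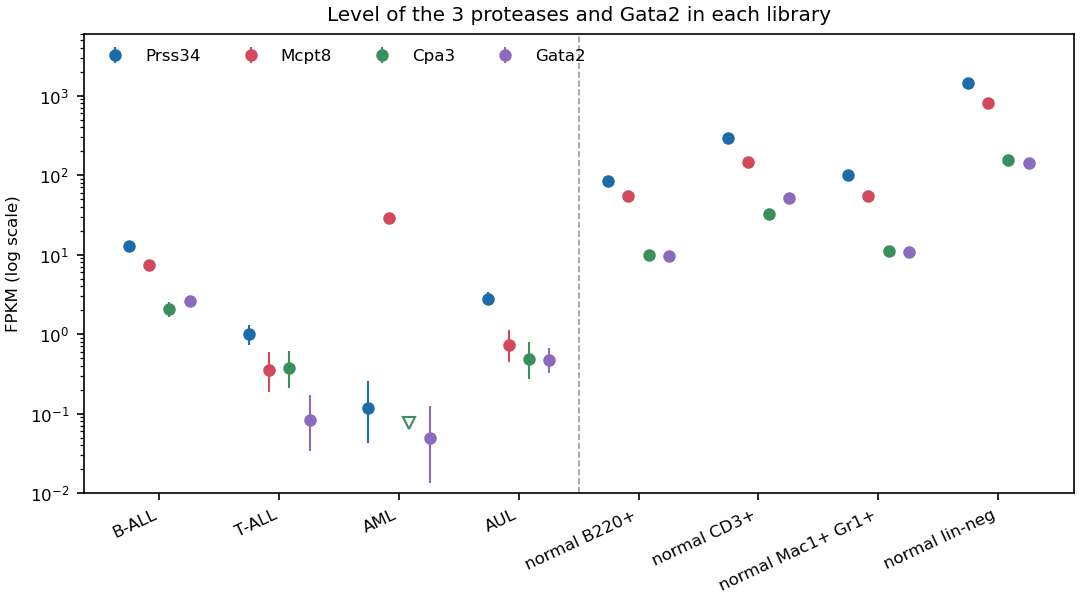
FPKM of Prss34, Mcpt8, Cpa3 and Gata2 (log axis) in each of the 8 libraries, leukaemias left of the dashed line and normal populations (lin-neg, lineage-negative) right of it, with bars for the 95% counting interval and an open triangle for the 3-fragment limit of Cpa3 in AML. Every point on the left lies below every point of the same gene on the right, and Mcpt8 in AML, at 29.2, stands apart from the other genes of that library.

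Taken as pairs of the same gate, each leukaemia against its normal counterpart, the decrease was smallest in B-ALL for Prss34, Cpa3 and Gata2. Prss34 was 6.58-fold lower in B-ALL than in normal B cells (6.06 to 7.15), Mcpt8 7.50-fold lower (6.59 to 8.55), Cpa3 4.82-fold lower (3.78 to 6.21) and Gata2 3.67-fold lower (3.15 to 4.29). B-ALL thus held 15.2% of the normal B level of Prss34, 13.3% of Mcpt8, 20.8% of Cpa3 and 27.3% of Gata2. The Gata2 percentage had an interval of 23.3% to 31.8%, which did not reach those of Prss34 (14.0% to 16.5%) or Mcpt8 (11.7% to 15.2%) but overlapped that of Cpa3 (16.1% to 26.5%). Beside this, 8 of 8 neutrophil markers were at least 2-fold higher in B-ALL, against 18.2% of all genes, with a sum of 4936 FPKM against 1130 in normal B cells and none at 0. Eosinophil markers summed to 172.6 FPKM in B-ALL, with 164.6 among normal B cells, over 10 of 10 genes with none at 0. The part of these other cells in the B-ALL values was not tested.

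In T-ALL the 4 genes rested on 7 to 52 fragments. Prss34 was 296.7-fold lower than in normal T cells (226.1 to 397.5), Mcpt8 417-fold lower (243.4 to 783), Cpa3 86.4-fold lower (52.2 to 154.9) and Gata2 620.2-fold lower (300.7 to 1544). Cpa3 was the gene with the smallest ratio there, and its interval did not overlap those of the other 3. AUL against normal lineage-negative cells showed decreases of 513.5-fold for Prss34 (427.7 to 622), 1127-fold for Mcpt8 (737.2 to 1821), 323.1-fold for Cpa3 (195.7 to 577.6) and 298.7-fold for Gata2 (210.4 to 439.9). Gata2 thus had the smallest ratio in AUL and the largest in T-ALL. Eosinophil markers, with 10 of 10 genes measured, summed to 19.6 FPKM in AUL against 1661 in normal lineage-negative cells, and Il5ra was at 0 in AUL. The part of the sort in these values was not tested.

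In AML the members parted. Prss34 was 852-fold lower than in normal myeloid cells (391.4 to 2323), Cpa3 at least 143.5-fold lower and Gata2 221.3-fold lower (86.2 to 813.8). Mcpt8 was 1.89-fold lower (1.76 to 2.04), a level 52.8% of the normal one (49.1% to 56.8%). AML differed widely from its counterpart across all genes, and the median log2 ratio of the 9965 genes with at least 1 FPKM was 0.56, against -0.02, 0.03 and -0.18 in the B, T and lineage-negative pairs. Scaling the libraries by median ratios moved that AML median to -0.35 and the log2 ratio of Mcpt8 to -1.75, whereas scaling to a common sum gave 0.77 and -0.67.

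Called as at least 2-fold on the log2(FPKM + 1) scale, all 4 genes were lower in B-ALL, T-ALL and AUL, and 3 of 4 in AML, where Mcpt8 differed by -0.90. The share of all genes so called lower was 21.9% in B-ALL (18.2% higher), 24% in T-ALL (22.1% higher), 26.7% in AML (43.3% higher) and 29.5% in AUL (13.6% higher). In most of these pairs a gene could enter only through its normal library, so that the count adds nothing to the levels. The differences so called ran from -1.55 for Gata2 in B-ALL to -8.89 for Mcpt8 in AUL.

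Over the 4 pairs, limma with the gate as a block gave a mean log2 difference of -6.22 ± 0.86 (SE) for Prss34, -4.31 ± 0.82 for Gata2, -4.19 ± 0.76 for Cpa3 and -4.83 ± 1.19 for Mcpt8. Prss34 (adjusted p = 0.0326), Cpa3 (0.0418) and Gata2 (0.0428) passed the Benjamini-Hochberg threshold of 0.05 over 11071 genes in limma, and Mcpt8 did not (0.0588). Of all genes 2.42% passed as lower and 1.26% as higher, and the median over all genes was -0.08. At an unadjusted p under 0.05 in the same limma fit, 1976 of the 11071 genes were lower and 1944 higher. The SD over the 4 pairs was 2.55 for Prss34, 3.65 for Mcpt8, 2.04 for Cpa3 and 2.25 for Gata2, and all 4 pairs were lower for each gene. The exact two-sided sign-flip permutation gave p = 0.125 for each gene, the smallest that 4 pairs allow. In limma, leaving out the T, the myeloid or the lineage-negative pair ended the calls of Prss34, Cpa3 and Gata2 (adjusted p 0.0602 to 0.124), and leaving out the B pair let all 4 genes pass (0.0449 for Mcpt8, the highest of the 4). Without the gate block, limma kept Prss34 but not Cpa3 or Gata2 (0.0648 each).

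**Figure D2:**
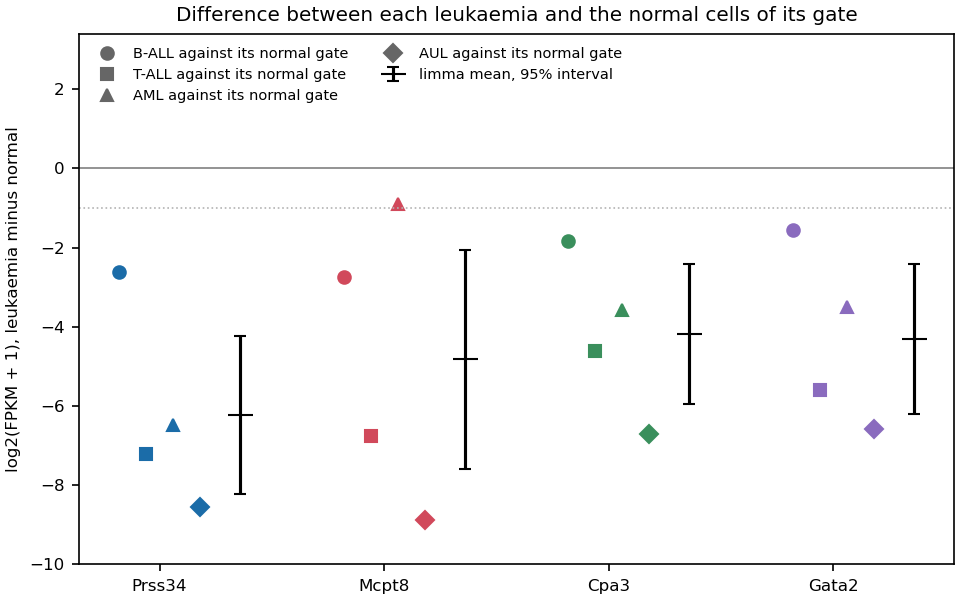
Difference in log2(FPKM + 1), leukaemia minus normal, for each gene in the 4 gate pairs (symbols), with the limma mean and its 95% interval in black; the solid line marks 0 and the dotted line a 2-fold decrease. All 16 points lie below 0, Mcpt8 in AML at -0.90 is the only one above the dotted line, and B-ALL is the least negative for Prss34, Cpa3 and Gata2.

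The ratios between the genes within a library were set side by side. Prss34 over Mcpt8 was 1.75 in B-ALL (1.52 to 2.03) against 1.54 (1.45 to 1.62) in normal B cells. Prss34 over Cpa3 in B-ALL was 6.29 (4.99 to 8.02) and Prss34 over Gata2 was 4.97 (4.26 to 5.82), against 8.58 and 8.90 in normal B cells. Cpa3 over Gata2 in B-ALL was 0.791 (0.605 to 1.03) against 1.04 in normal B cells. AML stood apart in Prss34 over Mcpt8, at 0.00399 (0.00146 to 0.00872) against 1.80 in normal myeloid cells, and in Mcpt8 over Gata2, at 599.3 (233.4 to 2204) against 5.13. In T-ALL, Prss34 over Cpa3 was 2.63 (1.46 to 5.04) against 9.05 in normal T cells. In AUL it was 5.83 (3.39 to 10.7) against 9.26 in normal lineage-negative cells, with the lower value inside counting error. Relative to Gata2, AUL lay near its counterpart for Cpa3, at 1.02 (0.509 to 1.94) against 1.10 in normal lineage-negative cells. AUL was lower for Prss34, at 5.92 (3.95 to 9.10) against 10.2, and for Mcpt8, at 1.54 (0.839 to 2.76) against 5.80. Prss34 over Mcpt8 in AUL was 3.85 (2.40 to 6.46) against 1.75 (1.73 to 1.78), a shift opposite to that in AML. In T-ALL, Cpa3 over Gata2 was 4.50 (1.73 to 13.0), above the 0.626 of normal T cells. Prss34 over Gata2 was 11.8 (5.36 to 30.9) in T-ALL against 5.67 and Mcpt8 over Gata2 was 4.21 (1.56 to 12.5) against 2.83, both inside counting error.

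Across the normal libraries the ratios of the 3 proteases to each other varied less than those to Gata2. Prss34 over Mcpt8 was 1.54 in normal B cells, 2.00 in T cells, 1.80 in myeloid cells and 1.75 in lineage-negative cells. The intervals of B cells (1.45 to 1.62) and T cells (1.94 to 2.07) did not overlap each other or those of the other normal libraries. Prss34 over Cpa3 was 8.58, 9.05, 9.03 and 9.26 in the same order, with overlapping intervals. Prss34 over Gata2 was 8.90, 9.21 and 10.2 in normal B, myeloid and lineage-negative cells but 5.67 (5.46 to 5.88) in normal T cells, so that T cells held more Gata2 for each unit of Prss34. Cpa3 over Gata2 was likewise 0.626 (0.585 to 0.670) in normal T cells and 1.02 to 1.10 in the other 3.

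**Figure D3:**
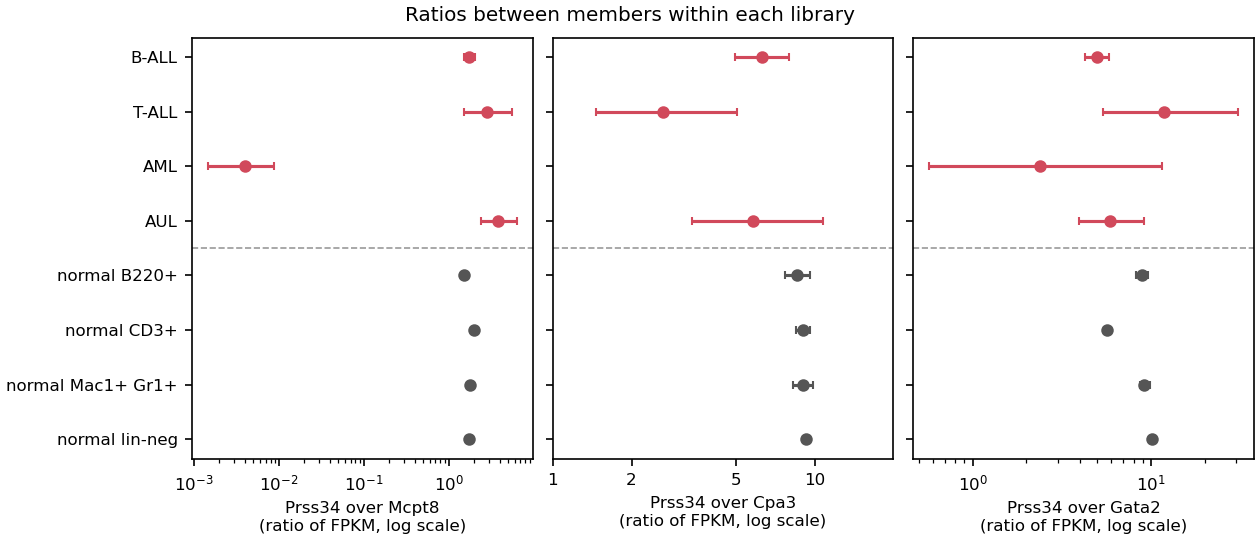
Ratio of the FPKM of Prss34 to that of Mcpt8, Cpa3 and Gata2 (log axes, one panel each) in the 4 leukaemias (red, above the dashed line) and the 4 normal libraries (grey), with 95% counting intervals; Prss34 over Cpa3 has no value in AML, where Cpa3 is 0. The normal libraries run from 1.54 to 2.00 for Mcpt8 and overlap for Cpa3, normal CD3+ cells fall to 5.67 for Gata2, and AML lies at 0.00399 for Mcpt8.

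As percentages of the lineage-negative level, the same values give the difference of Gata2 in normal T cells in another form, not as a second observation. Normal T cells held 20.5% of the lineage-negative level of Prss34, 17.9% of Mcpt8 and 20.9% of Cpa3, but 36.7% of Gata2 (35.4% to 38.1%). Over the 14 receptor and surface genes of basophils with at least 5 FPKM in lineage-negative cells, normal T cells held 12.8% to 396% (median 37.3%), and over 10 cytokine and mediator genes up to 78.1% (median 41.6%). Cd63 (12.8%), Hdc (18.9%) and Alox5 (20.1%) lay at or under the level of the proteases, as did Alox5ap, the lowest of the mediators. Higher in these lists, Fcer1a stood at 26.3%, Ms4a2, the beta chain of the same receptor, at 28.1%, Cd200r3, an activating surface receptor, at 42.6%, Il6 at 42.3% and Cyp11a1, a steroid-synthesis enzyme, at 43.8%. Over 10 stem and progenitor genes, Gata2 among them, normal T cells held 3.10% (Cd34) to 371% (Ly6a), with a median of 8.14% and Kit at 7.66%. Over 8 eosinophil genes they held 1.11% to 22.3% (Alox15), with a median of 2.42% and the granule genes Prg2 and Epx at 1.88% and 2.35%. In normal B and myeloid cells the 4 genes kept to a narrow range, 5.89% to 6.72% and 6.76% to 7.64% of the lineage-negative level. Normal T cells also held B-cell markers, as given above, and whether the RNA of these genes came from CD3+ cells or from others in the sort was not tested.

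**Figure D4:**
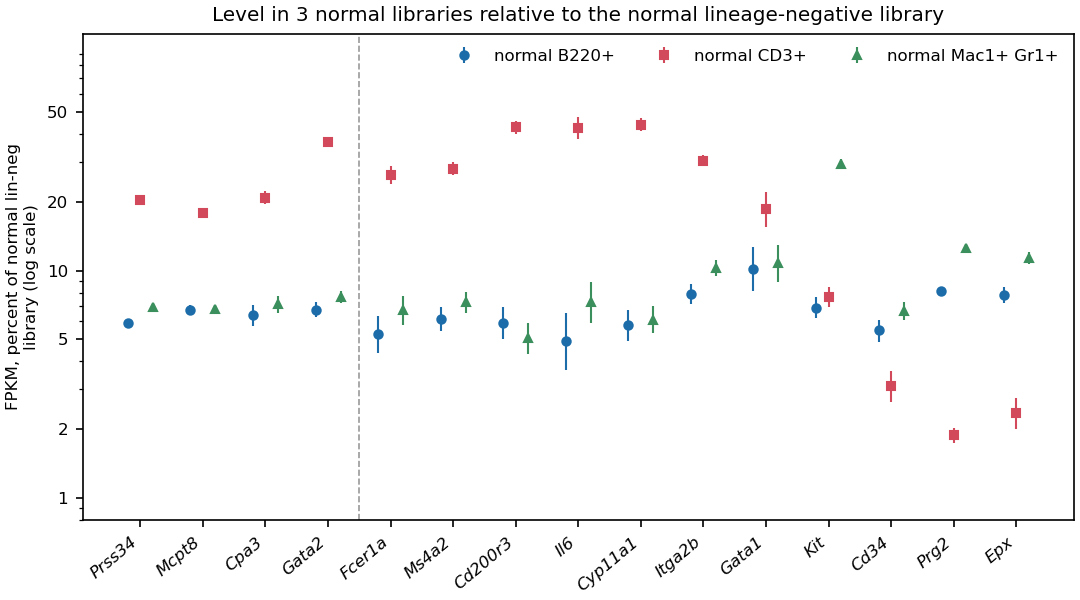
FPKM in normal B220+, CD3+ and Mac1+ Gr1+ cells as a percentage of the level in normal lineage-negative cells (log axis), for the 4 genes left of the dashed line and 11 genes of the marker lists right of it, with 95% counting intervals. The CD3+ library lies at 17.9% to 20.9% for the proteases and at 36.7% for Gata2, close to 42.6% for Cd200r3, and falls under the other libraries for Cd34, Prg2 and Epx.

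Some receptor genes of basophils passed the same test as the members. Of the 17 genes of the list, 16 were tested by limma and 4 passed as lower, against 2.42% of all genes: Ccr2, Cd200r1, Csf2rb2 and Fcer1g. The list median was -2.63, and 13 of the 16 were lower at an unadjusted p under 0.05, against 1976 of all 11071 genes. Fcer1a, Cd200r3, Itga2 and Il1rl1 were under 1 FPKM in every leukaemia. These genes entered the fit through normal libraries alone, with little room for a higher call. Ccr2, a chemokine receptor, had 2.03 FPKM in AML, 0.628 in AUL, 3.90 in B-ALL and 4.48 in T-ALL, against 68.4, 98.6, 18.4 and 38.4 in normal myeloid, lineage-negative, B and T cells. Its limma difference was -3.82 (adjusted p = 0.0418), and the groups did not overlap. Fcer1g, the signalling chain of the immunoglobulin E receptor that other myeloid cells also use, differed by -3.69 in limma (adjusted p = 0.0445). Fcer1a (-3.34), Ms4a2 (-3.54) and Cd200r3 (-3.29) did not pass limma, with adjusted p of 0.0541, 0.0601 and 0.0520. Of the 4 genes that passed, only Ccr2 was highest in normal lineage-negative cells, as the members were. Csf2rb2 was highest in normal B cells (29.5 FPKM), and Cd200r1 (16.4) and Fcer1g (997) in normal myeloid cells.

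Within gates, 7 of 13 tested receptor genes were at least 2-fold lower in B-ALL, 14 of 16 in T-ALL, 13 of 14 in AML and 15 of 16 in AUL. The shares of all genes were 21.9%, 24%, 26.7% and 29.5%. Of the tested genes 2, 9, 7 and 7 entered through the normal library alone, where no higher call was possible. The genes at least 2-fold higher were the granule membrane gene Cd63 in AML and the interferon-induced gene Ifitm1 in B-ALL. In those pairs 43.3% and 18.2% of all genes were higher. Cd63 had 887.5 FPKM against 367.8 in normal myeloid cells, and Ifitm1 23.8 against 9.29 in normal B cells. In B-ALL, Fcer1a had 0.972 FPKM, Ms4a2 1.09 and Cd200r3 0.378, so these basophil receptors remained detectable beside the proteases.

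AML parted from the pattern in the receptor as well. Ms4a2 had 2.51 FPKM in AML (120 fragments) against 6.93 in normal myeloid cells, whereas Fcer1a had 0.0259 (1 fragment) against 4.15 and Cd200r3 had 0 against 2.44. Ms4a2 over Fcer1a was 96.7 in AML (17.0 to 3849), against 1.67 in normal myeloid cells and 1.55 to 1.81 over the normal libraries. Mcpt8 thus stayed in AML with Ms4a2, while Prss34, Cpa3, Gata2, Fcer1a and Cd200r3 were at or under 6 fragments each.

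Among neighbours of Mcpt8, Ctsg, the neutrophil and monocyte protease cathepsin G of the same chromosome 14 cluster, had 1127 FPKM in AML against 72.3 in normal myeloid cells. Ctsg over Mcpt8 was 38.6 in AML (36.3 to 41.0) and 1.31 in normal myeloid cells. Kit, the stem cell factor receptor of mast cells and progenitors, had 53.4 FPKM in AML against 17.0 in normal myeloid cells. Gzmb, a granzyme gene of the same cluster, had 0.0333 FPKM in AML against 1.21 in normal myeloid cells, so its direction there was opposite to that of Ctsg. Neutrophil markers, with 8 of 8 genes measured and none at 0, summed to 6182 FPKM in AML against 82118 in normal myeloid cells. The part of these cell states in the Mcpt8 level was not tested.

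Of 13 cytokine and mediator genes of basophils, 10 were tested by limma and 2 passed as lower, against 2.42% of all genes: the chemokine genes Ccl3 (-4.78, adjusted p = 0.0472) and Ccl4 (-5.22, adjusted p = 0.0326). Ccl4 had 1.68 FPKM in AML, 0.627 in AUL, 1.45 in B-ALL and 0.140 in T-ALL, against 17.4, 172.0, 53.2 and 134.4 in normal myeloid, lineage-negative, B and T cells. T and natural killer cells also make both chemokines. The list median in limma was -2.52, and 10 of 10 genes were lower at an unadjusted p under 0.05, against 1976 of all 11071 genes. Il4, Il6 and Cyp11a1 were under 1 FPKM in every leukaemia. They entered the fit through normal libraries alone, with little room for a higher call. In B-ALL 3 of 11 tested genes were at least 2-fold higher, against 18.2% of all genes, and 4 were lower, against 21.9%. The 3 higher genes were Hdc, Alox5 and Osm. Hdc, which makes histamine, had 26.7 FPKM against 9.91 in normal B cells. Alox5, of leukotriene synthesis, had 20.8 against 5.96, and the cytokine gene Osm 32.1 against 15.0. Neutrophils carry these 3 as well, and normal myeloid cells held 341.1 FPKM of Hdc, 323.8 of Alox5 and 413.2 of Osm.

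Of the GATA factors and their partners, 18 of 22 genes were measured and tested by limma. Gata2 and Irf8 passed as lower, against 2.42% of all genes, with a list median of -1.62. At an unadjusted p under 0.05 in limma, 6 were lower and 2 higher, against 1976 and 1944 of all 11071 genes. Irf8, a factor of monocyte, dendritic and B cells that also acts in basophil progenitors, had 3.47 FPKM in AML, 63.0 in AUL, 136.6 in B-ALL and 27.0 in T-ALL, against 58.5, 485.0, 965.0 and 91.1 in normal myeloid, lineage-negative, B and T cells. Its limma difference was -2.80 (adjusted p = 0.0326), and the groups overlapped, since B-ALL lay above normal T and myeloid cells and AUL above normal myeloid cells. Gata1, the erythroid, megakaryocyte and mast cell factor, had 0.0473 FPKM in AML, 0.266 in AUL, 0.583 in B-ALL and 0.116 in T-ALL, against 2.41, 22.4, 2.28 and 4.16 in normal myeloid, lineage-negative, B and T cells. It did not pass limma (-2.29, adjusted p = 0.0587). Gata3, the T-lineage factor, went the other way within 3 gates, at 5.05 FPKM in B-ALL, 114.8 in T-ALL and 21.7 in AUL against 0.849, 51.5 and 5.41 in their normal counterparts. Cebpa, a granulocyte factor, was at least 2-fold higher in AML, at 90.7 FPKM against 32.2 in normal myeloid cells.

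Markers of the other cells that use Gata2 or share a gate with basophils were tested in the same fit. Of 11 tested stem and progenitor genes, 1 passed limma as lower, which was Gata2 itself, beside 2.42% of all genes that passed. The list median was -1.78, and 9 were lower at an unadjusted p under 0.05. At that unadjusted p 1976 of all 11071 genes were lower, the share for the counts that follow as well. Of 6 tested megakaryocyte genes, 1 passed, Itga2b (-3.66, adjusted p = 0.0459), which encodes the integrin CD41, and 3 were lower at an unadjusted p under 0.05. Of 10 eosinophil genes limma called 0, with 9 lower at an unadjusted p under 0.05 and a median of -2.76, and of 4 mast cell genes limma called 0, with 1 lower at an unadjusted p under 0.05 and a median of -1.20. Summed eosinophil markers ran from 3.75 to 172.6 FPKM in the leukaemias and from 48.8 to 1661 in the normal libraries, with Il5ra at 0 in T-ALL, AML and AUL and Ccr3 and Ear6 at 0 in AML. Summed megakaryocyte markers ran from 1.95 to 7.01 and from 18.7 to 169.8 FPKM over 11 of 12 genes, and the part of those cells in the Gata2 values was not tested.

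The genes whose levels most resembled the mean of the 4 members were found by Pearson correlation of log2(FPKM + 1) over the 8 libraries, among 9325 genes with at least 5 FPKM in some library. The 10 most alike were Itga2b (r = 0.989), Fcer1a (0.984), Slc7a8 (0.980), Klrb1f (0.980), Ms4a2 (0.968), Gata1 (0.967), Cd200r3 (0.965), Ccl4 (0.963), Tmem176a (0.957) and Npc2 (0.954). These points share libraries, depth and the contrast of leukaemia with normal cells, so the coefficients describe the table and carry no test. Between members, Cpa3 and Gata2 had r = 0.994, Prss34 had 0.986 with each of them, and Mcpt8 had 0.844 to 0.884 with the other 3. The genes nearest to Mcpt8 were Ccl3 (0.985), Ms4a2 (0.970) and Klrb1f (0.952), each of which kept a level in AML: 15.6, 2.51 and 3.90 FPKM against 55.2, 6.93 and 9.87 in normal myeloid cells. The genes nearest to Prss34, to Cpa3 and to Gata2, members aside, were headed by Itga2b in each case (0.989, 0.996 and 0.997).

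**Figure D5:**
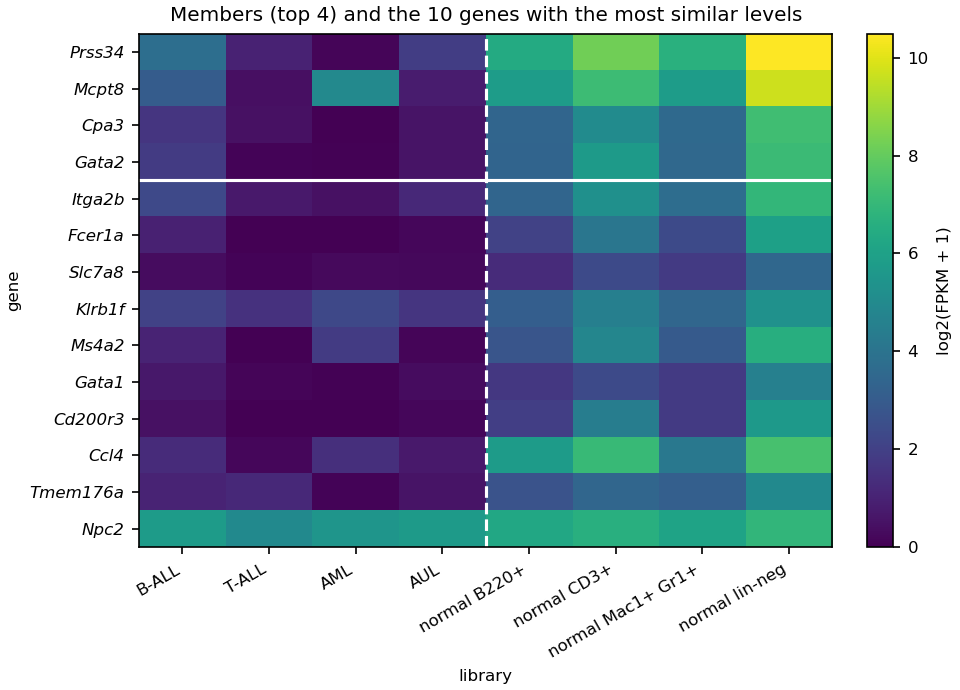
Levels as log2(FPKM + 1) of the 4 members (top) and of the 10 genes most like their mean, in the 4 leukaemias (left of the dashed line) and the 4 normal libraries. The lineage-negative column is the brightest for all 14 genes, the leukaemia columns are dark for most, and Npc2, at 30.1 to 52.7 FPKM in the leukaemias, is the least dark there.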

How the data were processed

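RNA was extracted with Trizol and poly(A) RNA was sequenced as paired ends, per the labels' protocols. FPKM values per gene were made by the authors from reads compared with build mm10, and the submitters' processing notes name STAR, HTSeq and edgeR, with versions and roles not given in the sources used here. The rule by which genes entered the deposited table is not stated, so every share of genes is a share of that table. Fragments were recovered because FPKM times transcript length gave whole fragments, to within 0.02, in 94.1% to 94.6% of values tested among 5147 genes with a single transcript (GENCODE lengths). For the members, whose deposited lengths differ from GENCODE, the length that made the lowest values above 0 whole was used, in 4 libraries for Prss34 and Mcpt8 and in 6 for Cpa3 and Gata2 (1216 bases for Prss34, 855 for Mcpt8, 924 for Cpa3 and 1939 for Gata2). Listed genes hold 70.8% to 80.1% of the fragments.

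Levels were compared as log2(FPKM + 1), which understates the change of low genes, whereas folds are ratios of FPKM. limma 3.58.1 (lmFit, eBayes with a trend, R 4.3.3) was fitted to all genes that reached 1 FPKM in 2 or more libraries, taking the gate as block (4 levels, 3 residual degrees of freedom), with p-values Benjamini-Hochberg adjusted over all of them. The fit was tested on simulated data. A gene under 1 FPKM in every leukaemia could enter it through normal libraries alone. Such a gene has little room to come out higher, so the counts of lower genes in the lists partly restate the levels. Pairs come from the gate, not from an animal, and libraries of a class are different populations, so p-values measure the spread between gates. Intervals of counts are exact Poisson and those of ratios come from exact binomial limits. Genes named are the members, list genes with at least 5 FPKM in some library and the genes most like the members. The members and lists were chosen with earlier results of these data known. Python 3.11.15, numpy 2.4.6, pandas 2.3.3 and scipy 1.17.1 were used.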

Additional observations from a re-analysis of the deposited data

Results flagged for a closer look

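In 4 of 8 sets of 4 libraries, the highest library lay farther from the next than Dixon's 95% limit for the gap over the range. Chance passes that limit, at either end, in about 1 of 20 sets of normally distributed replicates. The libraries of a set are different populations, not replicates, and the gaps were taken on FPKM rather than on its log, so that rate does not carry over. Among the normal libraries, lineage-negative cells were marked for Prss34 (1436 FPKM), Mcpt8 (818.6) and Cpa3 (155.1), with gaps of 0.845, 0.880 and 0.844 of the range. Gata2 in the same library, at 141.2 FPKM, was not marked (0.679), since normal T cells held 51.8. Among the leukaemias, B-ALL was marked for Gata2 (2.59 FPKM, a gap of 0.833), while the highest libraries of Prss34 (0.790), Cpa3 (0.765) and Mcpt8 (AML, 0.758) were not.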

How the results depend on the processing

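The direction held for all 4 genes in all 48 alternatives of the limma fit and all 64 of the ratios within gates, but the calls near the threshold moved. With a pseudocount of 5 the limma difference was -4.96 for Prss34 (adjusted p = 0.0613), -2.61 for Cpa3 (0.0734) and -2.70 for Gata2 (0.0731), none of which passed. With no filter on low values it was -6.22 (0.0930), -4.19 (0.0954) and -4.31 (0.0995). Without the gate block Cpa3 (-4.19) and Gata2 (-4.31) had 0.0648 each. On a common FPKM sum Gata2 was -4.29 (0.0520). Mcpt8 passed with a pseudocount of 0.1 (-5.53, 0.0493), with median-ratio scaling (-5.02, 0.0470) and with a minimum of 5 FPKM (-4.83, 0.0422). Leaving out each gate pair in turn gave -7.42 to -5.44 for Prss34, -6.14 to -3.47 for Mcpt8, -4.97 to -3.34 for Cpa3 and -5.23 to -3.55 for Gata2.

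Genes that passed as higher numbered 140, and 309 with a pseudocount of 0.1, 3 with 5, 351 with median-ratio scaling, 33 on a common sum, 3 with no filter, 434 with a minimum of 5 FPKM, 8 without the block, 72 without the trend, and 0 to 11 with a pair left out. Genes lower numbered 268, and 530, 0, 561, 137, 0, 507 and 33 in the same order without the last, and 0 to 162 with a pair left out. Where limma called 0 lower, 1784 (pseudocount 5), 2216 (no filter) and 1920 (without the myeloid pair) had an unadjusted p under 0.05 in that direction, as did 1632 higher genes without the myeloid pair. Median-ratio scaling moved the median of all genes to -0.25. Of the 10 genes most like the members, 6 were kept with a pseudocount of 0.1. Gata2 in B-ALL was no longer 2-fold lower with a pseudocount of 5 (-0.93). The cause of these moves was not tested. The labels number no replicates, so the pairs come from the gate alone. Depth limits T-ALL, AML and AUL, where the members other than Mcpt8 in AML and Prss34 in AUL rest on 0 to 52 fragments.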

Other observations

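Some relatives of the 3 proteases were measured beside them. Of 13 genes of the tryptase locus 5 were measured, and beside Prss34 only Prss30 reached 5 FPKM, at 0 in AML, AUL and T-ALL and 0.0548 in B-ALL, against 0.112 in normal myeloid cells, 3.38 in lineage-negative cells, 17.6 in B cells and 2.51 in T cells. Its highest library was thus normal B cells, where Prss34 was lowest among the normal libraries, and it did not pass limma (-2.06, adjusted p = 0.0745). In the chymase and granzyme cluster, where 6 of 16 genes were measured, Gzmb had 0.0333 FPKM in AML, 0.146 in AUL, 0.313 in B-ALL and 0.0816 in T-ALL, against 1.21, 14.8, 3.80 and 68.9 in normal myeloid, lineage-negative, B and T cells. Prss30 and Gzmb were both lower in every leukaemia library than in any normal library, as were 10.5% of the 11071 genes tested by limma. For Prss30 the closest libraries were B-ALL, with 2 fragments, and normal myeloid cells, with 6. Gzmb was highest in normal T cells and Mcpt8 in lineage-negative cells. In the cluster limma called 0 of the 3 tested genes, with 2 lower at an unadjusted p under 0.05, against 1976 of all 11071 genes.

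Of 13 carboxypeptidase genes 7 were measured. Cpm, a membrane carboxypeptidase, had 2.10 FPKM in AML, 0.828 in AUL, 14.3 in B-ALL and 1.51 in T-ALL, against 0.866, 23.6, 75.8 and 25.7 in normal myeloid, lineage-negative, B and T cells. Cpd had 35.5 FPKM in AML against 88.1 in normal myeloid cells. Cpn1, a subunit of a plasma carboxypeptidase, had 13.7 FPKM in B-ALL, with 0.0124 among normal B cells, and at most 0.337 in the other 3 leukaemias. Cpa3 was the only 1 of the 3 tested carboxypeptidase genes to pass limma.

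Plasmacytoid dendritic cell markers, a further cell type of B220+ gates, passed limma as lower in 4 of 8 genes (Irf7, Ly6d, Runx2 and Siglech), against 2.42% of all genes. The list median was -2.82, and 7 were lower at an unadjusted p under 0.05, against 1976 of all 11071 genes. Their sum was 91.2 to 202.1 FPKM in the leukaemias and 200.4 to 2399 in the normal libraries. Erythroid markers gave 0 of 13 calls in limma, with 3 lower and 1 higher at an unadjusted p under 0.05, against 1976 and 1944 of all 11071 genes.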
